A study of Mus musculus with 8 samples.

Results

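LMO2 acts in blood progenitors as part of a complex of transcription factors, and the RNA levels of the genes of this complex and of the E proteins were examined in Ebf1-deficient mouse pro-B cell lines. The set holds 10 genes, which are Lmo2, Ldb1, Ssbp3, Lyl1, Tal1, Gata2, Lmo4, Tcf3, Tcf12 and Tcf4. It takes in every probe outside the controls whose RefSeq accession belongs to one of these symbols, and these were 14 of 39378 probes analysed, for 10 of 20125 named genes. Lmo4, Tcf3, Tcf12 and Tcf4 had 2 probes each and the other members 1.

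The pro-B(+) cells are a line that keeps T-lineage potential, derived from Ebf1-deficient fetal liver and maintained on OP9 stromal cells. The pro-B(-) cells are a line of the same origin that lacks this potential and was maintained on TD7, a stromal line from fetal thymus. Pro-B(-)/Mock and pro-B(-)/LMO2 are pro-B(-) cells given an empty lentiviral vector with rat CD2 behind an internal ribosome entry site, or the same vector encoding mouse Lmo2. Both parental lines were grown with SCF, Flt3L and IL-7, and each is a single line, so a difference between them is a difference between 2 lines. EBF1 is a B-lineage transcription factor, and no group with intact Ebf1 was measured. The stromal cells, Notch ligand, time after transduction and any sort of the transductants before RNA isolation are not given in the labels. Each group had 2 arrays, and nothing was found to say that the transductant replicates were separate cultures.

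LMO2 is a LIM-only protein that does not bind DNA itself. It bridges LDB1, which is held together and stabilised by SSBP proteins, to a tissue-restricted basic helix-loop-helix (bHLH) factor, TAL1 or LYL1, and to a GATA factor such as GATA2. TAL1 and LYL1 bind the E-box motif CANNTG as dimers with an E protein, which is encoded by Tcf3 (E2A), Tcf12 (HEB) or Tcf4 (E2-2). LMO4 is a related LIM-only protein that also binds LDB1. The E proteins drive early B- and T-lineage programmes and are held back by the ID proteins, which pair with them but lack the DNA-binding part. In the T lineage, LMO2 is best known for causing leukaemia when it is expressed out of place.

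Lyl1, Tal1 and Lmo4 were called in both comparisons made within a slide, and the bases just before their first annotated starts are shown because they hold, or lack, the motif that this complex reads. RefSeq windows were available here for 8 of the 10 members. Lmo2 and Tcf4, the other members called in both comparisons, had none. The stretches are from GRCm38.p6 and read along the strand of the gene, with each E-box (CANNTG) in capitals. Lyl1 is on the plus strand at chr8:84701207-84701422, Tal1 on the plus strand at chr4:115056176-115056425 and Lmo4 on the minus strand at chr3:144205256-144205505.
Lyl1: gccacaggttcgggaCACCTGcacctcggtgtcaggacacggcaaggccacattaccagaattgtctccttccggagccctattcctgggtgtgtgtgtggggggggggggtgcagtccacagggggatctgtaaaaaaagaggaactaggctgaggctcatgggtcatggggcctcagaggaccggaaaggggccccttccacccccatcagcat
Tal1: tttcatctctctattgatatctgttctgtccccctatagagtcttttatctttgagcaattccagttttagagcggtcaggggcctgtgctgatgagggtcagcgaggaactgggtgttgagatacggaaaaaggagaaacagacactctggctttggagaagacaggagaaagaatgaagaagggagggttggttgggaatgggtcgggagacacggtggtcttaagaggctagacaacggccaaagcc
Lmo4: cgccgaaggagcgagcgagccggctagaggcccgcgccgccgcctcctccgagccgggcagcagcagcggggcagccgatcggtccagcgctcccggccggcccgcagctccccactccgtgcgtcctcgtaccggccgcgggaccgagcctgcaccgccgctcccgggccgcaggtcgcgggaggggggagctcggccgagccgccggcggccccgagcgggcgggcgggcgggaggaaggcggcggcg
The Lyl1 stretch of 216 bases holds 1 E-box, CACCTG, and no GATAA on either strand. The Tal1 stretch of 250 bases holds no E-box and 1 GATAA motif, and the Lmo4 stretch of the same length holds neither. An E-box was present in 61.6% of all 32851 windows cut to the 216 bases and in 66.2% of those with 250 bases, and GATAA in 20.3% and 22.6%. A match of letters is a description of these windows only.

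Each array was scaled on its 75th percentile, and the log2 intensity after this step is called the normalized log2 signal, so that 0 lies at the upper quartile of an array. Changes were tested with limma over all probes, and a gene is called where its adjusted p is under 0.05. The 75th percentile of the intensity was 604 to 949, 56.5% to 61.2% of probes were well above background, and replicate arrays correlated at 0.999. One slide carried the parental arrays and another the transductant arrays, so both parental groups were compared within a slide, as were both transductants. Calls rest on the small spread between 2 arrays, and an exact permutation test of 2 against 2 could not go below p = 0.333. On all 8 arrays, 13 of the 14 probes were well above background. The exception was the single probe of Gata2, a GATA factor of stem and progenitor cells, which was not well above background on any array. Its normalized log2 signals lay between -8.02 and -5.79 in the 4 groups and have no order, so Gata2 was not tested and 9 members were.

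**Figure D1:**
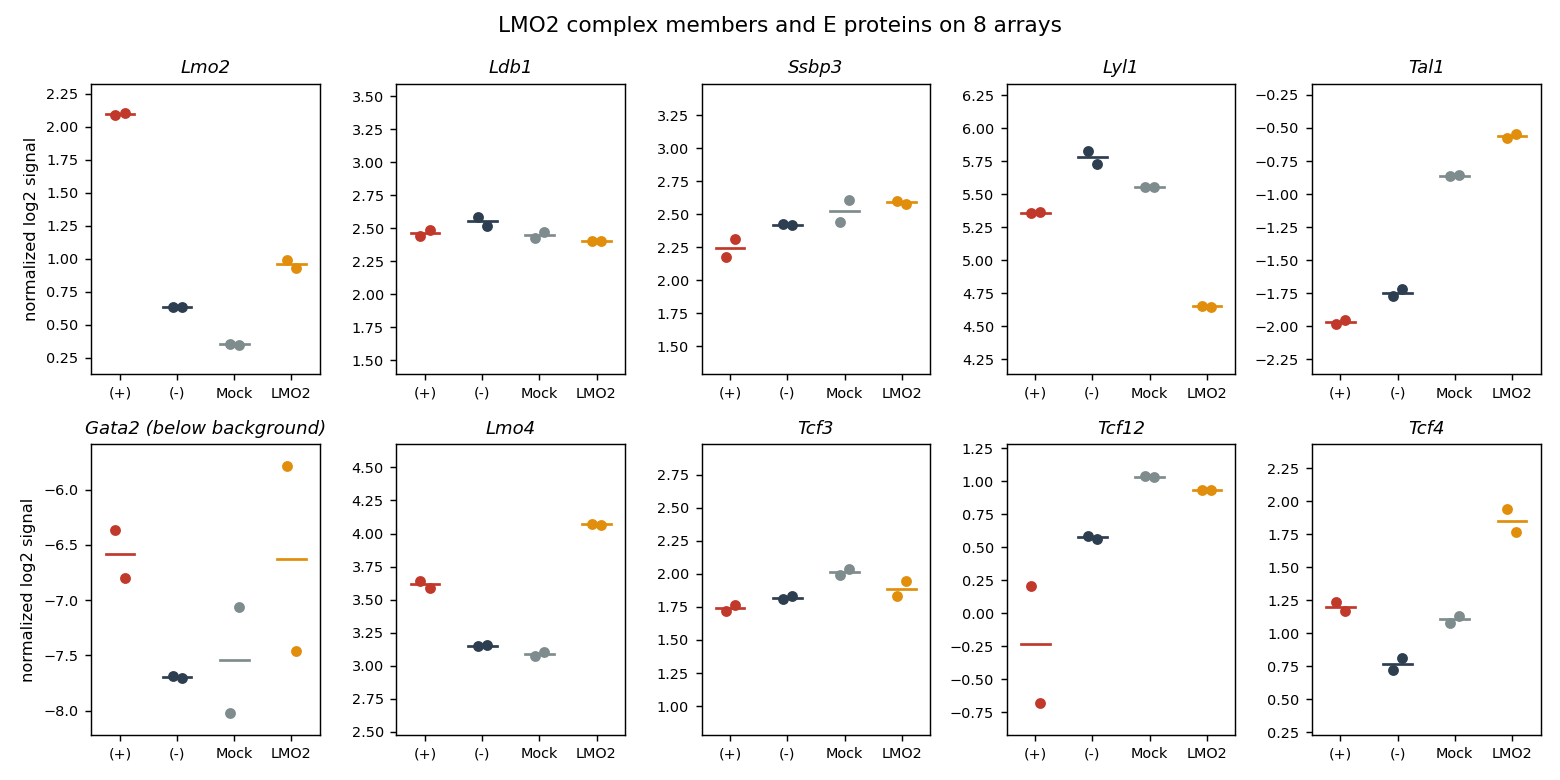
Normalized log2 signal (vertical axis) of the 10 members on each of 8 arrays, by group (horizontal axis), with the brightest probe of each gene; points are arrays, lines are means of 2, and the vertical range differs between panels. Lmo2 is highest on both pro-B(+) arrays, Lyl1 lowest and Lmo4 and Tcf4 highest on both pro-B(-)/LMO2 arrays, and Tcf12 is split between the pro-B(+) arrays.

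The first question was how the complex differs between the parental lines, of which pro-B(+) has T-lineage potential. Of the 9 members tested, 6 were called, where 52.8% of all 13219 genes tested were called. Lmo2, Lmo4 and Tcf4 were higher in pro-B(+) cells, and 25.7% of all genes were called higher. Lyl1, Tal1 and Tcf12 were lower, and 27.1% of all genes were called lower. The median change of the members was -0.09 on the log2 scale and that of all genes was -0.01, and only Lmo2 differed by 2-fold or more among the members called.

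The second question was what introduced Lmo2 does to its own partners in pro-B(-) cells, with the empty vector as control. Of the 9 members, 5 were called, where 68.9% of all 12927 genes were. Lmo2, Tal1, Lmo4 and Tcf4 were higher with the Lmo2 vector, and 31.1% of all genes were called higher. By the brightest probes Lyl1 alone among the members was lower, and 37.8% of all genes were called lower. The dimmer probe of Tcf3 was called lower too (log2 -0.22). The median change was 0.07 for the members and -0.04 for all genes, and no called member reached 2-fold by its brightest probe. The number of members called was thus not far from the share called among all genes in either comparison.

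Lmo2, the bridge of the complex and the gene carried by the vector, had normalized log2 signals of 2.09 and 2.10 in pro-B(+) cells and 0.63 and 0.63 in pro-B(-) cells. In the transductants they were 0.35 and 0.35 with the empty vector and 0.99 and 0.93 with the Lmo2 vector. Both pro-B(+) arrays were above all others, both pro-B(-)/LMO2 arrays came next, and no groups overlapped. The means were 2.10 ± 0.010, 0.63 ± 0.0019, 0.35 ± 0.0023 and 0.96 ± 0.043 (SD, n = 2) in the order given. Between the parental lines the signal differed 2.76-fold in favour of pro-B(+) (log2 1.46, 95% interval 1.38 to 1.55, limma adjusted p = 1.99e-06) and the Lmo2 vector raised it 1.53-fold over the empty one (log2 0.61, 95% interval 0.53 to 0.70, adjusted p = 3.82e-05). With the vector, Lmo2 stayed below the level of pro-B(+) cells by 2.19-fold (adjusted p = 3.47e-06) across the 2 slides. Where the probe lies relative to the Lmo2 sequence in the vector was not examined.

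The 5 genes whose pattern was most like that of Lmo2 over the 8 arrays, among 2699 genes above background on all of them whose group means spanned log2 1 or more, were Ptafr, Pira2, Lilra6, Cd300c2 and Selenop. Their Pearson correlations with Lmo2 were 0.999, 0.997, 0.997, 0.996 and 0.996, over 8 arrays that form 4 pairs of replicates and share their slides by pairs. Ptafr encodes the platelet-activating factor receptor, and Pira2, Lilra6 and Cd300c2 encode immunoglobulin-like receptors of myeloid cells, whose probes may share targets with near-identical family members. Ptafr, for example, averaged -1.69, -4.04, -4.42 and -3.45 in the same order. The order of the groups is that of Lmo2, which follows from picking these genes by their correlation with it.

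Markers of myeloid cells differed too. The summed signal of the 10 markers measured, relative to the 75th percentile, was 51.7 to 52.1 in pro-B(+) and 9.72 to 10.6 in pro-B(-) cells, and 10.6 to 11 with the empty vector and 25.9 to 27.2 with the Lmo2 vector. In pro-B(+) cells 8 markers were higher, among them Mpo, which encodes myeloperoxidase, and Csf1r, the receptor of macrophage colony-stimulating factor, while the Fc receptor gene Fcgr3 was lower (log2 -0.98) and the integrin gene Itgam was not called (log2 -0.14). With the Lmo2 vector 5 of 8 tested were higher, while S100a8 and S100a9, which encode granulocyte and monocyte calcium-binding proteins, were not well above background in either transductant. Mpo carried most of the rise of the sum with the vector. Without Mpo the sums were 9.85 to 10.3 in Mock and 10.6 to 11.2 in LMO2 cells. They were then 35.8 to 35.9 in pro-B(+) and 8.21 to 9.13 in pro-B(-) cells. From pro-B(-) to Mock cells, where Lmo2 was lower, 3 of 7 tested were lower and 2, Itgam and Cd14, were higher. In bulk RNA, fewer cells of a type and less RNA per cell cannot be told apart, and the part of these markers in the results for the members was not tested.

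Ldb1, the dimerising adaptor of the complex, had the smallest spread of group means among the members tested. Its normalized log2 signals were 2.44 and 2.49 in pro-B(+), 2.59 and 2.52 in pro-B(-), 2.43 and 2.47 in Mock and 2.41 and 2.40 in LMO2 cells. All 8 arrays lay within a narrow band, and the pro-B(+) and Mock arrays overlapped. Ldb1 was not called in either comparison, with a change of -0.09 (95% interval -0.19 to 0.01) between the parental lines and -0.05 (95% interval -0.14 to 0.05) between the transductants (limma adjusted p = 0.119 and 0.357).

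Ssbp3, which protects LDB1 from degradation, gave normalized log2 signals of 2.17 and 2.31 in pro-B(+), 2.42 and 2.42 in pro-B(-), 2.44 and 2.61 in Mock and 2.60 and 2.58 in LMO2 cells. Both pro-B(+) arrays were the lowest of the 8, and the transductants overlapped. The change was -0.18 between the parental lines (95% interval -0.35 to -0.0010, limma adjusted p = 0.0870) and 0.07 between the transductants (95% interval -0.11 to 0.24, adjusted p = 0.439), so neither was called. With each array scaled on its median, which moves the median change of all probes from -0.04 to -0.33 between the parental lines and from -0.04 to -0.25 between the transductants, Ldb1 and Ssbp3 were called lower in pro-B(+) cells (log2 -0.37 and -0.46), and Ldb1 was called lower with the vector (log2 -0.26).

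Lyl1 and Tal1 encode the alternative bHLH partners of LMO2, and they went different ways. Lyl1 had normalized log2 signals of 5.36 and 5.37 in pro-B(+), 5.83 and 5.73 in pro-B(-), 5.55 and 5.56 in Mock and 4.66 and 4.65 in LMO2 cells. The LMO2 arrays were the lowest of the 8, the pro-B(-) arrays the highest, and no groups overlapped. Between the parental lines Lyl1 fell by 0.42 on the log2 scale (SE 0.042, limma adjusted p = 5.67e-04), with pro-B(+) the lower. With the Lmo2 vector it fell by 0.90 (SE 0.042, limma adjusted p = 1.94e-05), which is 1.87-fold. The fall with the vector was the larger one, and the difference of log2 0.48 was itself called (adjusted p = 0.00140).

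Tal1 had normalized log2 signals of -1.99 and -1.95 in pro-B(+), -1.78 and -1.72 in pro-B(-), -0.86 and -0.86 in Mock and -0.57 and -0.54 in LMO2 cells. All transductant arrays were above all parental arrays, and no groups overlapped. Between the parental lines Tal1 fell by 0.22, with pro-B(+) the lower (SE 0.037, limma adjusted p = 0.00429) and rose by 0.30 with the Lmo2 vector (SE 0.037, adjusted p = 7.34e-04). These effects differed in direction, by log2 -0.53 (adjusted p = 6.30e-04). With median scaling the rise with the vector was 0.09 and was not called (adjusted p = 0.0744). The largest step was between the untransduced and the empty-vector cells, where Tal1 was 1.85-fold higher in Mock cells (log2 0.89, adjusted p = 2.28e-05). Those groups lie on different slides, so slide and vector cannot be told apart.

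The erythroid and megakaryocyte markers had summed signals of 3.96 to 4.0 in pro-B(+), 2.62 to 2.94 in pro-B(-), 8.07 to 8.22 in Mock and 13.6 to 13.7 in LMO2 cells. The sums of the transductants were above those of the parental lines, as was Tal1, but pro-B(+) was above pro-B(-), which is opposite to Tal1. Alas2, which encodes the heme synthesis enzyme of red cell precursors, was not well above background on any array. Hbb-bt, a beta-globin gene, carried much of the sum, with group means of 1.82, 1.18, 2.91 and 3.61. Without it the sums were 0.428 to 0.479, 0.503 to 0.522, 0.627 to 0.658 and 1.39 to 1.51. In these sums pro-B(+) was below pro-B(-), and the order of the groups was that of Tal1. With the Lmo2 vector 5 of 5 markers tested were higher. Pf4, a platelet chemokine gene, went the other way across the lines, being well above background in pro-B(+) cells (mean -4.54) but not in the other groups, and Klf1, an erythroid factor, was not called between the parental lines (log2 0.24). The part of these markers in the result for Tal1 was not tested.

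Lmo4, the LIM-only paralog that binds LDB1, was higher in both comparisons. Its brighter probe gave normalized log2 signals of 3.64 and 3.59 in pro-B(+), 3.15 and 3.16 in pro-B(-), 3.08 and 3.10 in Mock and 4.07 and 4.07 in LMO2 cells. The LMO2 arrays were the highest and the pro-B(+) arrays came next, while pro-B(-) and Mock arrays lay close together. The parental difference was 1.38-fold, with pro-B(+) higher (log2 0.47, SE 0.035, limma adjusted p = 1.62e-04), and the rise with the Lmo2 vector was 1.97-fold (log2 0.98, SE 0.035, adjusted p = 7.31e-06). The second probe gave log2 0.52 and 0.96. The rise with the vector exceeded the parental difference by log2 0.51, with the difference coded as -0.51 (adjusted p = 5.55e-04). Mock and pro-B(-) cells did not differ by the test (log2 -0.06, 95% interval -0.15 to 0.03).

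**Figure D2:**
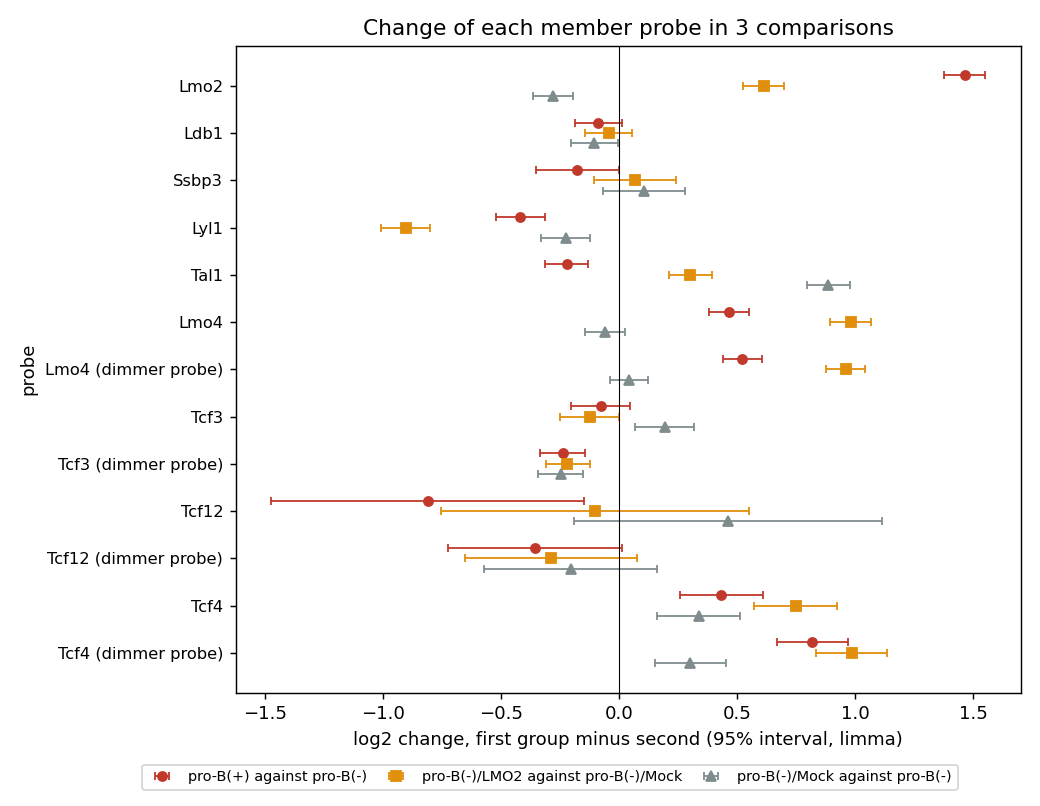
Log2 change (horizontal axis, first group minus second, with its 95% interval from limma) of the 13 member probes tested (vertical axis) in 3 comparisons, where circles are the parental lines, squares the transductants and triangles the empty vector against pro-B(-) cells across slides. Lmo2, Lmo4 and Tcf4 lie to the right of 0 and Lyl1 to the left for both circles and squares, and Tal1 lies on opposite sides.

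Tcf3 encodes the E2A proteins E12 and E47, and its probes differed. The brighter probe gave normalized log2 signals of 1.72 and 1.76 in pro-B(+), 1.81 and 1.84 in pro-B(-), 1.99 and 2.04 in Mock and 1.83 and 1.95 in LMO2 cells. These arrays spanned a narrow range in which the LMO2 and pro-B(-) arrays overlapped. It was not called between the parental lines (log2 -0.08, 95% interval -0.20 to 0.05, limma adjusted p = 0.246) or between the transductants (log2 -0.13, 95% interval -0.25 to -0.0010, adjusted p = 0.0725). The dimmer probe was called lower in both, with falls of 0.24 and 0.22 (adjusted p = 0.00359 and 0.00326). With median scaling the brighter probe was called lower in both too, by -0.36 and -0.34.

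Tcf12 encodes HEB, an E protein used in T-cell development, and its brighter probe was the noisiest of the members above background. Its normalized log2 signals were 0.20 and -0.68 in pro-B(+), 0.58 and 0.56 in pro-B(-), 1.04 and 1.03 in Mock and 0.93 and 0.94 in LMO2 cells. Both pro-B(+) arrays were below all others, but they differed from each other by more than the pro-B(-) and Mock groups did. Tcf12 fell by 0.81 in pro-B(+) cells at the edge of the threshold (SE 0.27, limma adjusted p = 0.0494). The size of the change rests on which pro-B(+) array is used, since it was -1.26 without replicate 1 and -0.37 without replicate 2, with the call kept in both. The call was lost in 9 of 15 alternatives, in which the change stayed between -0.82 and -0.80. These were the fit without a filter on dim probes (adjusted p = 0.109), that on only the 4 arrays compared (adjusted p = 0.119), the replicate block (adjusted p = 0.0540) and those without any 1 array of the other groups (adjusted p = 0.0769 to 0.151). The dimmer probe was not called (log2 -0.36, adjusted p = 0.0969). With the Lmo2 vector the change was -0.10 (95% interval -0.75 to 0.55, adjusted p = 0.761).

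Tcf4 encodes E2-2, the E protein of plasmacytoid dendritic cells, and it was higher in both comparisons. Its brighter probe gave normalized log2 signals of 1.23 and 1.17 in pro-B(+), 0.72 and 0.81 in pro-B(-), 1.07 and 1.13 in Mock and 1.94 and 1.76 in LMO2 cells. The LMO2 arrays were the highest and the pro-B(-) arrays the lowest, with pro-B(+) and Mock arrays close together between them. The parental difference was 1.35-fold, again with pro-B(+) higher (log2 0.43, SE 0.071, limma adjusted p = 0.00419), and the rise with the vector was 1.68-fold (log2 0.75, SE 0.070, adjusted p = 2.60e-04). The dimmer probe gave log2 0.82 and 0.99. With median scaling the parental difference of the brighter probe was 0.15 and was not called (adjusted p = 0.116).

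The plasmacytoid dendritic markers did not follow Tcf4 as a sum. The summed signal was 118 to 123 in pro-B(+) and 147 to 153 in pro-B(-) cells, and 163 to 166 in Mock and 134 to 138 in LMO2 cells. Within the list, 5 of 9 markers were higher and 2 lower in each comparison. Spib and Irf8, transcription factors of these cells, were higher in both (8.69-fold and 4.28-fold in pro-B(+) cells, 5.26-fold and 3.53-fold with the Lmo2 vector), and Cox6a2, a muscle-type subunit of the respiratory chain, was lower in both. Without Cox6a2 the sums of the parental lines overlapped (83.0 to 87.6 and 78.8 to 83.4). The part of these markers in the result for Tcf4 was not tested.

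The order of the groups differed from member to member. Lmo2 ran from pro-B(+) through LMO2 and pro-B(-) down to Mock, and each neighbour in that order differed by the test. Tal1 ran from LMO2 through Mock and pro-B(-) to pro-B(+), and Lyl1 from pro-B(-) through Mock and pro-B(+) to LMO2, again with each neighbour called. Lmo4 and Tcf4 shared LMO2 first and pro-B(+) next, but pro-B(-) and Mock did not differ for Lmo4, nor did pro-B(+) and Mock for the brighter Tcf4 probe. For Ldb1, Ssbp3 and the brighter Tcf3 probe no neighbours differed by the test, although the groups at the ends were called apart for each. These were LMO2 and pro-B(-) for Ldb1 (log2 -0.15, adjusted p = 0.0155), LMO2 and pro-B(+) for Ssbp3 (log2 0.35, adjusted p = 0.00568) and pro-B(+) and Mock for Tcf3 (log2 -0.27, adjusted p = 0.00473). The dimmer Tcf3 probe was not called between pro-B(+) and Mock (log2 0.008). With median scaling only 5 of the 9 members kept this order, the exceptions being Ldb1, Ssbp3, Tcf3 and Tcf4.

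Comparisons across the slides are given as values, since slide and group cannot be told apart in them. In Mock against pro-B(-) cells 5 members were called, where 60.8% of 12898 genes were (30.9% higher and 29.9% lower). Tal1, Tcf3 and Tcf4 were higher and Lmo2 and Lyl1 were lower, Lmo2 by log2 -0.28 (adjusted p = 0.00117). Only 3 members were called without Mock replicate 2. In LMO2 against pro-B(+) cells 8 members were called, all but Ldb1, where 78.0% of 13556 genes were (35.0% higher and 43.0% lower). The call of Tcf3 (log2 0.15, adjusted p = 0.0402) was lost in 9 of 15 alternatives, which left 7 members. Without LMO2 replicate 2 the change of this brighter Tcf3 probe was 0.09. The dimmer Tcf3 probe was called lower instead (log2 -0.23, limma adjusted p = 0.00244). Tal1 was 2.66-fold higher in LMO2 cells, while Lmo2 and Lyl1 were lower. By its brighter probe Tcf12 was higher by log2 1.17, which was 1.61 without pro-B(+) replicate 1 and 0.73 without replicate 2. The dimmer Tcf12 probe was not called (log2 -0.14, limma adjusted p = 0.437). Over all genes, 70.7% were called between pro-B(+) and Mock cells and 77.7% between LMO2 and pro-B(-) cells.

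The difference between the parental and the vector effect, which were taken within a slide each, was called for 5 of 9 members, Lmo2, Lyl1, Tal1, Lmo4 and Tcf4, where 58.8% of all genes were. For Lmo2 the parental difference was the larger by log2 0.85 (SE 0.049, limma adjusted p = 1.00e-04). For Tcf4 the vector effect was the larger by log2 0.31, coded as -0.31 (adjusted p = 0.0441), and this call was lost in 9 of the alternatives run.

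The other genes of the pathway were taken from 7 lists, and their counts are read beside the shares of all genes called, given above. Among paralogs of the LIM-only, LDB and SSBP families, Ssbp2 was lower in both comparisons (log2 -0.39 and -0.34) and Ssbp4 was lower in pro-B(+) cells (log2 -0.17, a call lost in 5 of 15 alternatives) and higher with the Lmo2 vector (log2 0.15, a call lost in 4 alternatives, with -0.06 under median scaling). Lmo1, the LIM-only relative that also causes T-cell leukaemia, was lower with the vector (log2 -2.76, limma adjusted p = 0.0119). The size is uncertain, because only 1 of the 2 LMO2 arrays was well above background. The change was -1.66 without LMO2 replicate 1, -3.86 without LMO2 replicate 2 and -0.48 with normexp background correction. Its change between the parental lines was 0.73 (adjusted p = 0.404). The fall was not called without Mock replicate 1 (adjusted p = 0.0577), and the parental change was called when only the 4 arrays compared were fitted (adjusted p = 0.00319). Lmo3 and Ldb2 were not well above background on any array. The median change over the 3 genes tested was -0.17 in pro-B(+) cells and -0.34 with the vector.

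Of the GATA factors and their FOG cofactors, 3 of 4 tested were higher in pro-B(+) cells and 3 of 3 with the Lmo2 vector, with medians of 0.45 and 0.39. Gata3, the GATA factor of T cells, was 1.38-fold and 1.49-fold higher (log2 0.47 and 0.58). Zfpm1, which encodes the cofactor FOG1, was 1.35-fold and 1.31-fold higher. Gata1, the erythroid factor, was dim in pro-B(+) cells and well above background on 1 of the 2 pro-B(-) arrays, with group means of -3.10 and -5.69, and was not tested between the transductants. Gata5 was higher with the vector (log2 0.39), and its parental change was -0.11.

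Of the other tissue-restricted bHLH genes, 3 of 4 tested were higher in pro-B(+) cells, which were Ascl2, Bhlha15 and Nhlh1, and 1 of 3, Bhlha15, was lower with the vector, with medians of 0.34 and 0.13. Ascl2 was not well above background in pro-B(-) cells so the rise in pro-B(+) cells was at least 1.49-fold. Over the alternatives the log2 change of Ascl2 was as low as 0.264, which is less than this bound. Bhlha15, a factor of secretory cells, was 1.33-fold higher in pro-B(+) cells (log2 0.41), a call lost with median scaling (0.13), normexp (0.15) and quantile normalization (0.22) and without pro-B(+) replicate 2 (0.33). It fell by 1.16 on the log2 scale with the vector. Nhlh1 rose by 0.26 in pro-B(+) cells, a call lost in 9 of 15 alternatives, with -0.03 under median scaling. Tal2, the closest relative of TAL1 and LYL1, was above background on 1 array only and was not tested.

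The ID genes encode the inhibitors of the E proteins, and 3 of 3 tested were higher in each comparison, except that Id3 was not higher with the vector under median scaling. Id4 was not well above background on any array. The median change was 2.94 in pro-B(+) cells and 0.79 with the Lmo2 vector. Id1 was 8.95-fold higher in pro-B(+) cells, with group means of -0.27 and -3.43, and 1.73-fold higher with the vector. Id3 was 7.66-fold and 1.15-fold higher (log2 2.94 and 0.20), but the call with the vector was lost in 7 of 15 alternatives, with -0.005 under median scaling. Id2, the family member best known in innate lymphoid and dendritic cells, was 1.72-fold higher in pro-B(+) cells and 2.06-fold higher with the vector. All 3 were also higher in Mock than in pro-B(-) cells across the slides, with a median of 1.32.

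Of 12 corepressors, coactivators and turnover factors tested, 4 were lower and 2 higher between the parental lines (median -0.07), and 2 were higher and 6 lower with the vector (median -0.17). Cbfa2t3, which encodes the corepressor ETO2 of the TAL1 complex, was 1.25-fold higher in pro-B(+) cells (log2 0.32, but 0.04 and not called with median scaling) and 2.48-fold higher with the Lmo2 vector (log2 1.31, limma adjusted p = 3.67e-06). Its relative Cbfa2t2 was lower in both (log2 -0.18 and -0.58). Hdac2, a histone deacetylase, was also lower in both (log2 -0.17 and -0.74), as was Gfi1b, a repressor of erythroid and megakaryocytic cells (log2 -0.62 and -0.24). The parental calls of Cbfa2t2 and Hdac2 were each lost in 5 of 15 alternatives.

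Of 10 reported target genes of LMO2 or TAL1, 5 were lower and 3 higher between the parental lines (median -0.14), and 7 were higher and 2 lower with the vector (median 0.92). Bcl11a and Tcf7 were taken up by the study because they changed in these samples, so they are not independent evidence of a direction. Bcl11a, a factor of lymphoid progenitors, was 47.6-fold and 58.4-fold higher. Tcf7, which encodes TCF1, was not well above background in pro-B(-) or Mock cells and was at least 7.54-fold and at least 238-fold higher. Over the alternatives its log2 change was as low as 1.258 and 5.025, which is less than these bounds. Kit, the receptor of stem cell factor, was 4.72-fold higher in pro-B(+) cells and 2.92-fold higher with the vector. Erg, an ETS factor of stem cells, fell by 1.32 and 4.42 on the log2 scale (limma adjusted p = 1.55e-04 and 1.48e-06). The size of the Erg change with the vector is uncertain, since the LMO2 arrays were dim (-5.50 and -5.26). It ranged from log2 -4.631 to -2.378 over the alternatives.

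Of 11 reported target genes of E proteins in lymphoid progenitors, 9 were lower and 1 was higher in the parental comparison, with a median change of -0.78. With the Lmo2 vector 3 were higher and 5 lower, with a median of -0.18. Rag1 and Rag2, the recombinase genes, were lower in both, by log2 -0.78 and -0.74 in pro-B(+) cells and by -2.78 and -2.11 with the vector. Over the alternatives the change with the vector ranged from -3.003 to -1.247 for Rag1 and from -2.318 to -1.632 for Rag2. Dntt, which encodes terminal transferase, fell by 2.92 in pro-B(+) cells and rose by 4.02 with the vector. Igll1, a surrogate light chain gene, was not well above background in pro-B(+) cells, where it was at least 1.44-fold lower, and it was lower with the vector (log2 -1.31), where 1 of the 2 LMO2 arrays was well above background. Over the alternatives the changes of Igll1 were as small as log2 -0.394, which is less than this bound, and -0.165 with the vector. Foxo1 was the gene higher in both (3.34-fold and 3.20-fold). Ebf1, in which all groups are deficient, still gave a signal well above background on each array, with means of 1.33, 1.52, 1.49 and 1.13, and where the probe lies relative to the targeted part was not examined.

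**Figure D3:**
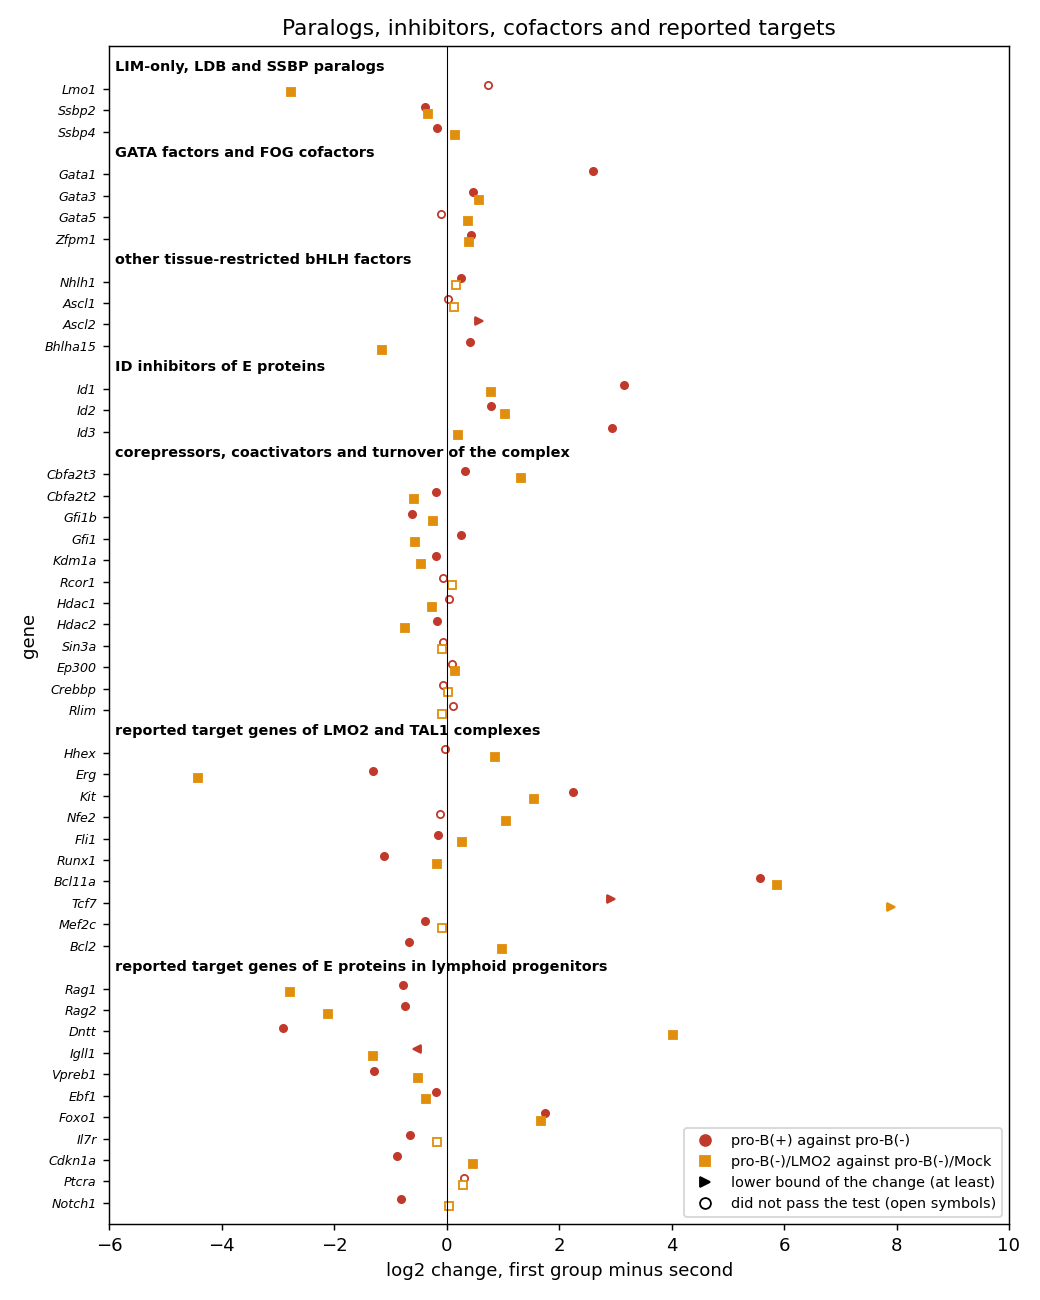
Log2 change (horizontal axis, first group minus second) of the tested genes of 7 pathway lists (vertical axis), with circles for pro-B(+) against pro-B(-) and squares for the Lmo2 vector against the empty vector; open symbols did not pass the test and triangles are lower bounds, pointing away from 0. The ID genes lie to the right of 0 in both comparisons, Id3 only just for the vector (log2 0.20, but -0.005 with median scaling), and most E protein targets lie to the left for the parental lines.

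The labels give the samples as B cell lines, and the defining markers were present in part. Ptprc, Il7r and Flt3 were well above background on all arrays, Cd79a was not in either transductant, Cd79b was not in pro-B(-) cells, and Igll1 was not in pro-B(+) cells. The summed signal of the pro-B and progenitor list was 28.9 to 31.1 in pro-B(+), pro-B(-) and Mock cells and 45.7 to 45.9 in LMO2 cells. Dntt carried this excess, since without it the sum was 28.5 to 30.8 outside pro-B(+) and LMO2 cells, 28.8 to 29.0 in pro-B(+) and 24.9 to 25.2 in LMO2 cells. With the vector 3 of its 9 markers tested were higher, Kit, Cd79b and Dntt, and 4 lower. Stromal markers summed to 37.4 to 37.6 in pro-B(+), 43.4 to 45.0 in pro-B(-), 61.8 to 62.2 in Mock and 43.9 to 45.1 in LMO2 cells. Of the 10 stromal markers tested between the parental lines, 8 were higher in pro-B(+) cells, while Thy1, which lymphoid cells also express, was lower. Thy1 set the order of the sums, which without it were 20.1 to 20.6, 9.89 to 10.2, 16.9 to 17.1 and 19.2 to 20.2 in the same order of groups. Lum and Dcn were not well above background on any array. Mast and basophil markers summed to 0.504 to 0.749 outside the LMO2 cells, where they summed to 1.13 to 1.16. Tpsb2 carried much of these sums. Without it they were 0.308 to 0.333 in pro-B(+) and 0.476 to 0.498 in LMO2 cells. In pro-B(-) and Mock cells they were 0.0549 to 0.111 and 0.0926 to 0.104. Of 5 tested between the parental lines, 4 were higher in pro-B(+) cells and Tpsb2 was lower, and 5 of 6 were higher with the vector. The part of any of these lists in the results for the members was not tested.

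**Figure D4:**
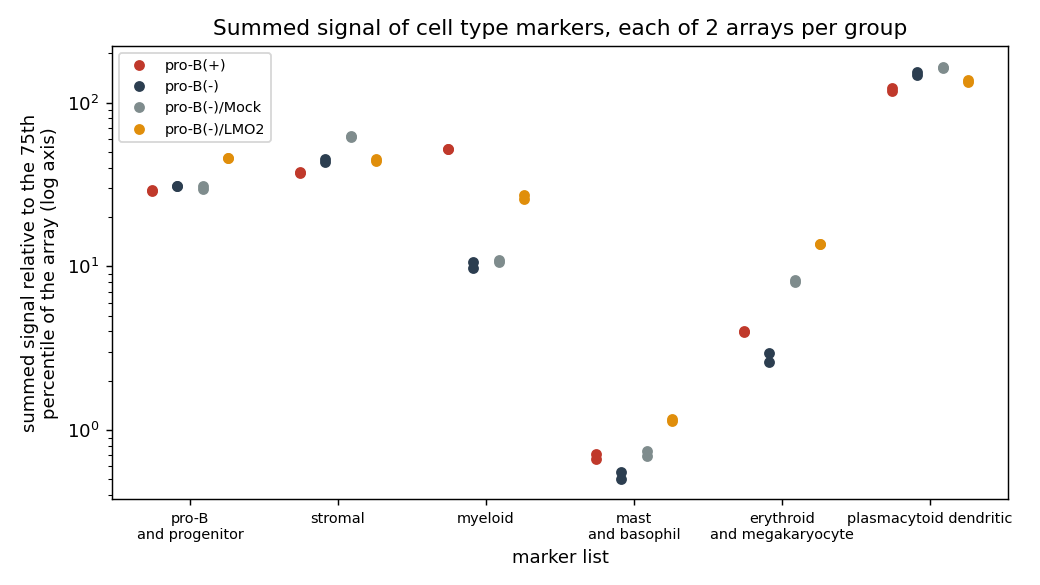
Summed signal of 6 marker lists (horizontal axis) relative to the 75th percentile of the array (vertical axis, log scale), with a point for each of 2 arrays per group. Myeloid markers are highest in pro-B(+) cells and next in pro-B(-)/LMO2 cells, and erythroid and megakaryocyte markers are highest in pro-B(-)/LMO2 cells. Without Mpo the myeloid sums were 9.85 to 10.3 in pro-B(-)/Mock and 10.6 to 11.2 in pro-B(-)/LMO2 cells.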

How the data were processed

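Total RNA of 8 samples in 4 groups was labelled with Cy3 and hybridised to one-colour Agilent whole mouse genome arrays. The authors deposited the Agilent Feature Extraction output, in which the intensity of a spot is background subtracted and detrended. A matrix of log2 values, which the authors scaled on the 75th percentile in GeneSpring, was deposited too; each of its columns equals the scanner value on the log2 scale minus a constant, and it served as an alternative. Groups were taken from the titles.

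Control spots and outlier flags were left out and spots of a probe averaged, which kept 39378 of 39429 probes, and 26550 (67.4%) were named through a RefSeq table of GRCm38.p6. The array was annotated on another build, so no probe positions are given. The brightest probe stood for a gene. Values are log2 intensity minus the 75th percentile, fitted with limma 3.58.1 in R 4.3.3 (4 group means, 4 residual degrees of freedom, Benjamini-Hochberg adjustment over all probes tested, a method checked on simulated data). Testing required a probe well above background on both arrays in 1 or more of the groups compared. A change against a group not well above background is a lower bound. It is taken against each array's lowest signal that counts as well above background, or the signal of the probe if that is higher. Such a bound belongs to the main processing, and the alternatives could give smaller changes.

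The members and gene lists were chosen with earlier results of these data known. Named genes are all members, up to 4 called list genes with the largest changes, genes needed to name counts of 5 or fewer, and the 5 most like Lmo2. Alternatives were median scaling, quantile normalization, the deposited matrix, no filter on dim probes, only the 4 arrays compared, the replicate number as a block, each array left out, and normexp on the median spot signal, which was chosen after seeing the data since the planned form, on mean signals, could not be run. Replicates of equal number did not deviate together (correlations of -0.0272 to 0.0515). P-values measure only the spread between these arrays, which may be technical, and their number limits the precision. A marker gene of the lists is not reported here.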

Additional observations from a re-analysis of the deposited data

Results flagged for a closer look

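For 5 members the effect of the Lmo2 vector differed from the difference between the parental lines by a test of the difference itself (limma, adjusted p under 0.05). The parental effect minus the vector effect was log2 0.85 for Lmo2 (adjusted p = 1.00e-04), 0.48 for Lyl1 (adjusted p = 0.00140), -0.53 for Tal1 (adjusted p = 6.30e-04), -0.51 for Lmo4 (adjusted p = 5.55e-04) and -0.31 for Tcf4 (adjusted p = 0.0441). The dimmer Tcf4 probe was not called (log2 -0.17). Over all genes, 58.8% were called in this contrast. Groups of 2 arrays are too small for a test of single arrays.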

How the results depend on the processing

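Of 136 results, 84 were kept in every alternative run, among them all 5 results for Lmo2. For a change, this means the same direction and the same side of the threshold. Counts of probes or members have no direction, and were kept where they stayed within a fixed ratio of the main count. Median scaling moved most. With it 18593 probes were called between the parental lines against 11549, and 5 of 9 members kept the order of the groups. The changes that turned sign with it were those of Ssbp3 (-0.14), Id3 (-0.005), Nhlh1 (-0.044), Ssbp4 (-0.057), Ep300 (-0.058) and Notch1 (-0.18) between the transductants, of Ep300 (-0.18), Gfi1 (-0.028), Hdac1 (-0.24) and Nhlh1 (-0.027) between the parental lines, of Ldb1 between LMO2 and pro-B(+) cells (0.031), and of Tcf3 in the difference of effects (-0.028). With quantile normalization Ldb1 (0.049), Nhlh1 (-0.031) and Notch1 (-0.071) turned between the transductants, and Hhex (0.006) between the parental lines. With normexp Hhex was 0.014 between the parental lines, and in the difference of effects Ldb1 was 0.009 and Tcf3 -0.010.

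Leaving out 1 array at a time, the members called in Mock against pro-B(-) cells ranged from 3 to 6, with 3 without Mock replicate 2. Between the transductants, Ssbp3 ranged from -0.015 (without Mock replicate 1) to 0.149, Mef2c from -0.163 to 0.002 (without Mock replicate 1) and Notch1 from -0.098 (without LMO2 replicate 1; -0.093 without Mock replicate 1) to 0.167. In the difference of effects Tcf3 ranged from -0.013 (without LMO2 replicate 1) to 0.106. A group left with 1 array was assumed to vary like the others. For Tcf12, leaving out either pro-B(+) array brought the change between the transductants (-0.10) past the threshold.

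With the replicate number as a block, 11296 probes were called between the parental lines and 14690 between the transductants. The numbers were not shown to pair the samples. Tcf12 between the parental lines and Tcf4 in the difference of effects lost their calls (adjusted p = 0.0540 and 0.0696), and Tcf3 between the transductants gained one (adjusted p = 0.0418). The cause of each change was not tested. Probes near background, such as that of Gata2, have no order.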
